A study of Mus musculus with 8 samples.

Results

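The genes described here are 10 genes of prostaglandin synthesis, response and breakdown, among the 42416 gene identifiers counted: the cyclooxygenases Ptgs1 and Ptgs2, the prostaglandin E synthases Ptges and Ptges2, the prostaglandin D synthase Ptgds, the prostaglandin D receptor Ptgdr, the prostaglandin E receptors Ptger1, Ptger3 and Ptger4, and the breakdown enzyme Hpgd. They were chosen by name and by earlier values of the same comparison, KO against Control, in these libraries. Their differences between the groups are therefore a description without a test. Each library was made from the RNA of 1000 fragments of mouse distal convoluted tubule that a particle sorter had collected. The 4 KO libraries came from animals labelled Cnb1fl Tg/Tg, NCCcre Tg/+ and TOMATO Tg/+, and the 4 Control libraries from animals labelled Cnb1fl wt with the same Cre and reporter. Cnb1 is the regulatory B subunit of the calcium-dependent phosphatase calcineurin (gene Ppp3r1), and the Cre is named for the NaCl cotransporter that marks this segment. Tamoxifen was given by gavage in both groups, at a daily 2 mg to each animal over 5 days, and tissue was taken 3 weeks after induction. The labels give no age or sex, and each title carries its own animal number.

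Prostaglandins are made when a cyclooxygenase turns arachidonic acid, released from membranes by phospholipases, into prostaglandin H, which separate synthases convert into prostaglandins E, D, F, I or thromboxane. Each product acts on its own G protein-coupled receptors near the cell that made it, and prostaglandin E is inactivated by Hpgd after uptake. In the kidney, prostaglandin E is the main product and modulates salt and water transport, Ptgs2 is a known gene of the macula densa, and the prostaglandin E receptor Ptger3 is best known from the thick ascending limb.

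Total counts ranged from 18161442 to 45150953 in KO and from 19911826 to 42389558 in Control libraries. The targeted gene did not separate the groups. Ppp3r1 averaged 86.2 ± 10.8 CPM in KO and 97.4 ± 9.87 CPM in Control (edgeR adjusted p = 0.548; CPM is the usual read count scaled to library size, here with TMM factors; SD, n = 4 each), and the gene-level count covers the whole gene, so it does not check the genotype labels. The segment's cotransporter gene Slc12a3 stood at 3911 to 8074 CPM in KO and at 5651 to 8049 CPM in Control. Pvalb, a marker of the early part of the segment, was at 1.503 to 2.14 CPM in KO against 179 to 987 CPM in Control. The 8 markers of the distal convoluted tubule summed to 10716 to 14523 CPM in KO and 15176 to 19759 CPM in Control, without overlap. The exact permutation p was 0.0286, with an adjusted p of 0.0857 over 9 marker lists. Of the 8, 4 were called lower and 0 higher by edgeR, where 0.876% of all genes tested were called lower. Tmem52b went the other way without overlap, at 3614 to 3854 CPM in KO and 2657 to 2955 CPM in Control. Emx1 overlapped between the groups. The part of these 8 markers in the prostaglandin gene values was not tested. RNA of neighbouring segments was present in both groups. In bulk samples, fewer cells of a type and less RNA per cell cannot be told apart.

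All 10 genes had enough counts for the fit across 14268 genes. Ptgdr had them through the KO libraries alone. In that fit, 2 of the 10 lay past an adjusted p of 0.05, Ptgdr as higher and Ptgds as lower in KO, where 1.34% of all genes tested were called higher and 0.876% lower (edgeR quasi-likelihood test). The 4 KO libraries lay wholly above the 4 Control libraries for Ptgdr, and wholly below them for Ptgds, Ptges and Ptger4. Such separation in either direction was seen in 9.44% of all genes tested. Both calls were lost without KO replicate 2, and that of Ptgdr also without any 1 Control library. Because the comparison itself chose the genes, nothing is read from these counts. The log2 fold change (KO over Control) was below 0 in 8 of the 10, and its median was -0.66, against -0.02 over all genes tested.

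**Figure D1:**
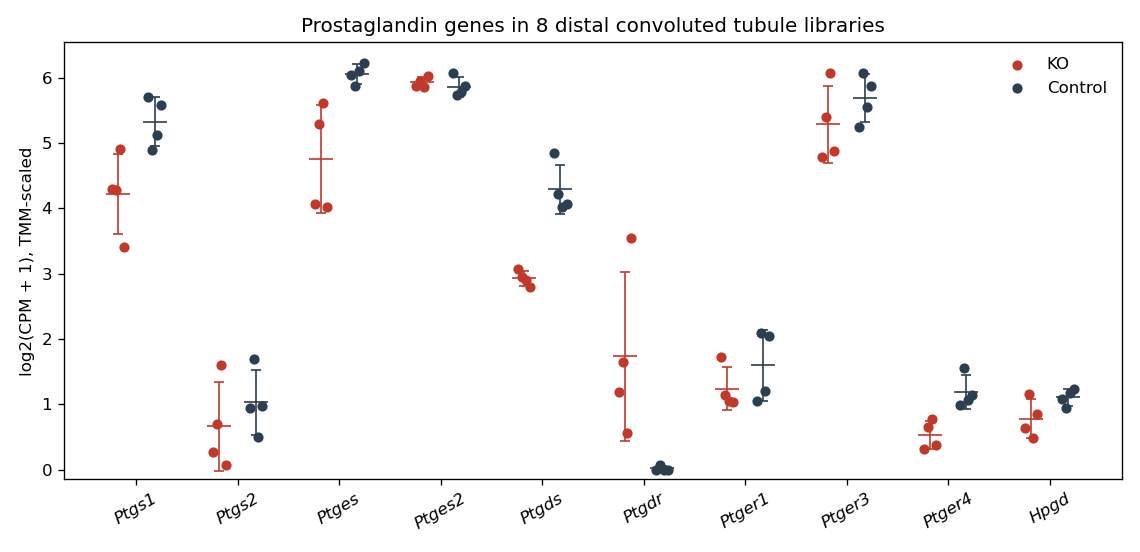
Level of each prostaglandin gene as log2(CPM + 1), with 1 point per library, KO left of Control, the horizontal bar at the mean and the error bar the SD of 4 libraries. KO points lie below Control points for Ptgds, Ptges and Ptger4 and above them for Ptgdr, while those of Ptges2 lie among the Control points.

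The sequence before a RefSeq start site is shown for the 4 genes whose groups did not overlap, 5′ to 3′ on the gene's strand. Windows are from RefSeq on GRCm38.p6, which had an entry for 9 of the 10 genes, and cover up to 250 bases before the start site. For Ptgdr and Ptger4 this site is the 5′ end of the annotated gene. For Ptges (30903297) and Ptgds (25469749) it lies inside the annotated gene, whose 5′ ends are at 30929863 and 25470046. Their windows are therefore not the sequence before the whole gene. Where exons of the gene reach into the window in the annotation, only the part before them is shown. The windows are chr14:44859376-44859625 (minus strand) for Ptgdr, chr2:25469843-25469999 (minus) for Ptgds, chr2:30903298-30903547 (minus) for Ptges and chr15:5244188-5244437 (minus) for Ptger4. Capitals mark, on either strand, the core GGAAA bound by NFAT factors, the transcription factors that calcineurin activates, the GC box GGGCGG, the CCAAT box, TATAAA, the AP-1 site TGANTCA and the cyclic AMP response element TGACGTCA.
Ptgdr: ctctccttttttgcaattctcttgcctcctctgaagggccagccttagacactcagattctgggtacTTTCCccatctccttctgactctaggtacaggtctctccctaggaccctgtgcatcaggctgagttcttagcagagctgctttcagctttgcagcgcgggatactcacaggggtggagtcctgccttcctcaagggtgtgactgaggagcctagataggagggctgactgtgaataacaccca
Ptgds: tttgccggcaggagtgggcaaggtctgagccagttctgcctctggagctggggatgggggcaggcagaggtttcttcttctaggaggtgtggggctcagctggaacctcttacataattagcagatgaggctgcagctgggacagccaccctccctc
Ptges: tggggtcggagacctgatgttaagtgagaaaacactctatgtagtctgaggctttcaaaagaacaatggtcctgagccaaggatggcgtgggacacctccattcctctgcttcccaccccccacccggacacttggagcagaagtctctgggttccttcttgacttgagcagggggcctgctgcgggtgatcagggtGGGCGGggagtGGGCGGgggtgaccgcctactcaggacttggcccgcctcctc
Ptger4: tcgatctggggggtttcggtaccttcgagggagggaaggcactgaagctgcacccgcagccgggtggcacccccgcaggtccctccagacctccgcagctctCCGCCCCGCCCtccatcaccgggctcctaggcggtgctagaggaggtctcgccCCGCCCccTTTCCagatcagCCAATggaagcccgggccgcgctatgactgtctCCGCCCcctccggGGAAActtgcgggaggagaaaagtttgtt

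The 4 windows differed in the motifs they held. Ptgdr had 1 NFAT core, 183 bases before its start, on the opposite strand. The full 250-base window of Ptgds held 1 AP-1 site and no other motif searched, and the part printed holds none. Ptges had 2 GC boxes, 53 and 42 bases before the start. Ptger4 had 2 NFAT cores, 1 CCAAT box and 4 GC boxes, of which a pair shares a base. Of 32851 windows of the same length, 55.6% held an NFAT core, 32.7% a GC box, 33.9% a CCAAT box, 12.4% TATAAA, 6.75% an AP-1 site and 1.55% a cyclic AMP response element. A match is a run of letters, not a shown binding site.

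Both cyclooxygenases were present, and Ptgs1 made up nearly all of their RNA. Ptgs1, the constitutive form (ENSMUSG00000047250, chromosome 2, 36230426 to 36252272, plus strand, GRCm38), was at 18.6, 18.3, 28.8 and 9.57 CPM in KO replicates 1 to 4, against 50.8, 28.8, 33.8 and 46.8 CPM in Control replicates 1 to 4. KO replicate 3 was level with the lowest Control library, and the other 3 KO libraries lie below every Control library. On the log2 scale, the fitted fold change was -1.08 ± 0.30 (SE, 4 libraries in each group). The 8 markers of the connecting tubule and of principal cells, none of which had 0 counts over the libraries, summed to 254, 250, 376 and 158 CPM in KO, against 356, 483, 468 and 607 CPM in Control (exact permutation p = 0.0571, adjusted p = 0.103). The KO libraries have the same order by this sum as by Ptgs1, and the Control libraries do not. That KO order is not particular to this list. The thick ascending limb, proximal tubule and podocyte marker sums have it too, highest in KO replicate 3 and lowest in KO replicate 4. The part of any of these cell types in the Ptgs1 values was not tested. Ptgs2, the inducible form (ENSMUSG00000032487, chromosome 1, 150100031 to 150108227, plus strand), was at 0.206, 0.617, 2.05 and 0.0501 CPM in KO and at 0.926, 2.24, 0.418 and 0.952 CPM in Control. Its groups overlapped, with a log2 fold change of -0.68 ± 0.84 (SE), and KO replicate 4 held 1 read of it. Per length, Ptgs1 took 94.3% to 99.6% of the summed cyclooxygenase level (TPM, which divides by exon length before scaling each library to the same sum) in KO and 93.8% to 99.0% in Control.

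Nos1, another gene of the macula densa, was highest in KO replicate 3, the KO library with most Ptgs2. Its level was 1.62, 2.12, 10.03 and 0.501 CPM in KO replicates 1 to 4 and 1.32, 3.75, 2.72 and 8.02 CPM in Control replicates 1 to 4. The part of these cells in the Ptgs2 values was not tested. For Ptgs2 the log2 fold change moved to -1.99 when KO replicate 3 was left out and to -0.08 when Control replicate 2 was left out.

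The 2 prostaglandin E synthases differed in how they compared between the groups. Ptges, the microsomal form that is induced together with Ptgs2 in inflammation (ENSMUSG00000050737, chromosome 2, 30889471 to 30929863, minus strand), stood at 15.7, 38.1, 48.1 and 15.2 CPM in KO and at 65.0, 57.2, 67.6 and 73.8 CPM in Control. All 4 KO libraries were below all Control libraries, and KO replicates 1 and 4 were the lowest. The log2 fold change was -1.17 ± 0.35 (SE). Scnn1g, a subunit of the epithelial sodium channel and 1 of the 8 connecting tubule and principal cell markers, was at 38.2, 58.3, 105 and 39.6 CPM in KO and at 98.8, 89.9, 141 and 167 CPM in Control. KO replicates 1 and 4 were the lowest KO libraries for both genes, and the Control libraries have the same order by both. The summed list, with a range of 158 to 376 CPM in KO and 356 to 607 CPM in Control, did not have the order of Ptges in either group. Aqp2, another of the 8 markers, was at 34.0, 12.1, 16.5 and 5.11 CPM in KO, highest in KO replicate 1. In Control it was at 23.8, 69.3, 29.7 and 35.9 CPM, highest in Control replicate 2, where Ptges was lowest. The part of connecting tubule and principal cells in the Ptges values was not tested. Ptges2, a widely expressed enzyme (ENSMUSG00000026820, chromosome 2, 32395896 to 32405772, plus strand), was at 57.8, 60.9, 56.7 and 64.4 CPM in KO and at 66.2, 51.9, 53.6 and 57.8 CPM in Control. Every KO value lay inside the Control range, and the log2 fold change was 0.06 ± 0.11 (SE). Within each library, the ratio of Ptges to Ptges2 per length was 0.350, 0.806, 1.09 and 0.304 in KO, against 1.26, 1.42, 1.62 and 1.64 in Control. This ratio does not depend on how libraries are scaled, and Ptges was the more abundant of the pair in every Control library and in KO replicate 3.

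Ptgds, the lipocalin-type synthase that makes prostaglandin D and also binds small lipophilic molecules (ENSMUSG00000015090, chromosome 2, 25466709 to 25470046, minus strand), was lower in every KO library. It stood at 7.42, 6.71, 6.45 and 5.91 CPM in KO and at 27.6, 17.7, 15.2 and 15.7 CPM in Control. The KO libraries were close to each other, while Control replicate 1 was above the other 3 Control libraries. Means were 6.62 ± 0.627 CPM in KO and 19.1 ± 5.82 CPM in Control (SD, n = 4 each), and the log2 fold change was -1.52 ± 0.21 (SE). Without Control replicate 1 it was -1.29, and over the 16 other settings and left-out libraries it lay between -1.62 and -1.29.

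Ptgdr encodes the receptor of the product of Ptgds, which raises cyclic AMP through a stimulatory G protein. The gene (ENSMUSG00000071489, chromosome 14, 44851235 to 44859375, minus strand) had 62, 55, 12 and 214 counts in KO replicates 1 to 4, against 0, 2, 0 and 0 counts in Control replicates 1 to 4. In CPM these were 1.27, 2.12, 0.472 and 10.7 in KO, and 0.0481 in Control replicate 2. A Control library with 0 counts allows a level of up to 0.146, 0.157 and 0.150 CPM in replicates 1, 3 and 4 (3 counts per library, counting error only). Every KO library lay above every Control library, and KO replicate 4 held 62.4% of the KO counts. The scaled ratio of summed counts, KO over Control, was 145 with an exact 95% counting interval of 39.7 to 1199. It was 65.3 (17.7 to 545) without KO replicate 4, and at least 56.8-fold higher without Control replicate 2, set against a floor of 3 counts over the group. Gm16976, a pseudogene on the opposite strand that shares 22.1% of the Ptgdr exon bases, had 4 reads in all 8 libraries.

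Markers of white blood cells, which can carry this receptor, moved with Ptgdr only in part. Ptprc, the pan-leukocyte marker, was at 2.51, 6.55, 3.46 and 10.9 CPM in KO replicates 1 to 4 and at 1.02, 2.00, 1.72 and 3.11 CPM in Control replicates 1 to 4, and it was highest in KO replicate 4, as Ptgdr was. Cd68 was at 0.905, 2.62, 0.787 and 3.81 CPM in KO and at 0.536, 0.577, 0.418 and 0.501 CPM in Control. Its KO values all lay above its Control values, as those of Ptgdr did, and it was also highest in KO replicate 4. The macrophage genes Adgre1, C1qa and C1qb were at 0.0501, 0 and 0.0501 CPM in that library. The 8 markers of macrophages and leukocytes summed to 27.5 to 79.4 CPM in KO and to 18.6 to 25.0 CPM in Control, with Csf1r, a receptor gene of macrophages, at 12.4 to 72.2 CPM in KO and 6.01 to 7.79 CPM in Control. Csf1r made up 72.2 of the 79.4 CPM in KO replicate 1. Cd74 was at 2.59, 12.1, 7.32 and 1.95 CPM in KO and at 8.48, 10.1, 13.3 and 7.92 CPM in Control. Lyz2 was at 0.165 to 1.61 CPM in KO and at 0.195 to 1.52 CPM in Control. Neither Cd74 nor Lyz2 was higher throughout KO, and in KO replicate 4 both were below most other libraries. The list's exact two-sided permutation p was 0.0286, the smallest that 4 against 4 libraries can give, and 0.0857 after Benjamini-Hochberg adjustment over the 9 marker lists. No marker of that list lay past the threshold by edgeR. The part of such cells in the Ptgdr counts was not tested.

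**Figure D2:**
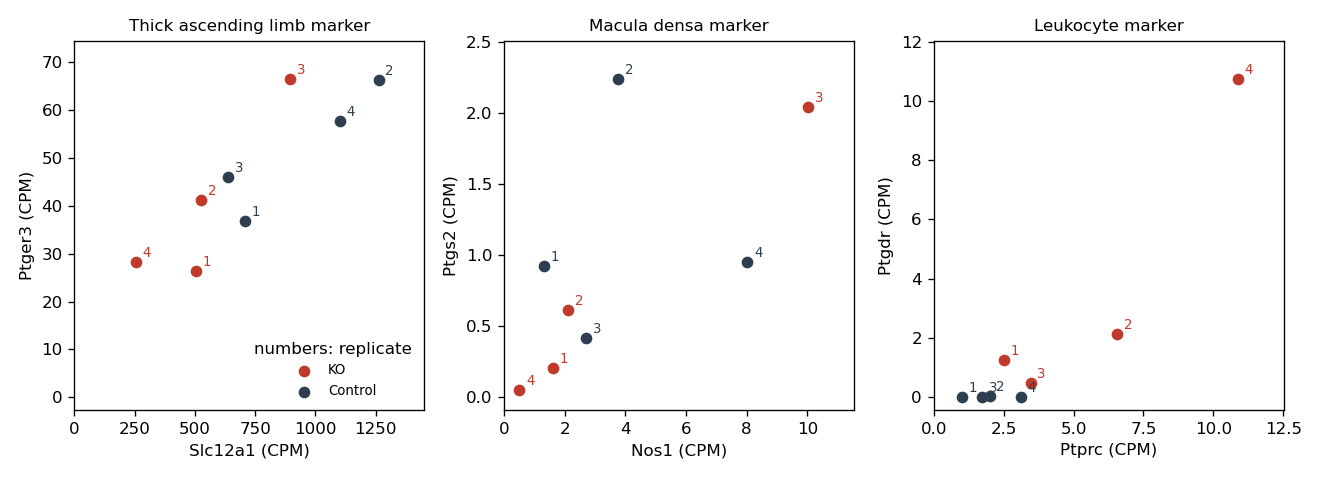
CPM of Ptger3, Ptgs2 and Ptgdr (vertical axes) against CPM of a marker of another cell type (horizontal axes), with 1 point per library labelled by its replicate number, KO and Control in different colours. The library with most Ptprc, KO replicate 4, also held most Ptgdr, and Ptger3 was lowest in the KO libraries with least Slc12a1.

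The prostaglandin E receptors Ptger1, Ptger3 and Ptger4 had negative fold changes, at very different levels. Ptger3, which lowers cyclic AMP through an inhibitory G protein (ENSMUSG00000040016, chromosome 3, 157566892 to 157645888, plus strand), stood at 26.4, 41.1, 66.4 and 28.4 CPM in KO and at 36.9, 66.4, 46.0 and 57.7 CPM in Control. Groups overlapped, and the log2 fold change was -0.35 ± 0.29 (SE), or -0.71 without KO replicate 3 and -0.20 without KO replicate 1. Slc12a1, the cotransporter of the thick ascending limb, was at 504, 526, 896 and 254 CPM in KO and at 708, 1263, 639 and 1103 CPM in Control. KO replicate 3 was the highest and KO replicates 1, 2 and 4 the lower KO libraries for both genes, and Control replicates 2 and 4 were the higher Control libraries for both. The 6 thick ascending limb and macula densa markers summed to 4310 to 7088 CPM in KO and 8916 to 13928 CPM in Control (exact permutation p = 0.0286, adjusted p = 0.0857). By edgeR, 1 of the 6 was called lower. Umod, at 2427 to 4545 CPM in KO and 6028 to 10962 CPM in Control, made up most of this sum. Kcnj1 overlapped between the groups, at 1600 to 1857 CPM in KO and 1517 to 1936 CPM in Control. Slc12a1, Cldn10, Cldn16 and Nos1 overlapped too. The part of the thick ascending limb in the Ptger3 values was not tested. Gene counts do not separate the splice forms of Ptger3, which differ in the tail that meets the G protein.

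Ptger4, a receptor that raises cyclic AMP (ENSMUSG00000039942, chromosome 15, 5206661 to 5244187, minus strand), was scarce, with 51 reads over the KO libraries and 146 over the Control libraries. Its level was 0.247, 0.578, 0.708 and 0.301 CPM in KO and 0.975, 1.95, 1.10 and 1.20 CPM in Control. The groups did not overlap, with a log2 fold change of -1.54 ± 0.43 (SE). Ptger4 shares 82 exon bases with Ttc33 on the opposite strand, which held 6986 reads. It shares 1015 (15.3%) with the pseudogene Gm15937, also on the opposite strand, which is not among the gene identifiers counted. The strand setting of the counts is not given in the sources used here. Ptger1, which couples to calcium release (ENSMUSG00000019464, chromosome 8, 83666678 to 83672753, plus strand), was at 2.30, 1.20, 1.06 and 1.05 CPM in KO and at 1.07, 3.27, 1.31 and 3.11 CPM in Control. Its groups overlapped (log2 -0.63 ± 0.44, SE), with -1.01 without KO replicate 1 and -0.36 without Control replicate 2. The Ptger1 values are uncertain, since the strand setting of the counts is unknown.

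Hpgd, the dehydrogenase that starts the breakdown of prostaglandins (ENSMUSG00000031613, chromosome 8, 56294585 to 56321043, plus strand), was near 1 CPM in both groups. It stood at 0.555, 1.23, 0.393 and 0.802 CPM in KO and at 1.122, 0.914, 1.25 and 1.35 CPM in Control. KO replicate 2 lay inside the Control range and the other 3 KO libraries below it, with a log2 fold change of -0.64 ± 0.39 (SE), or -0.99 without KO replicate 2.

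Levels of different genes can be set side by side only per length, as TPM computed from the counts and the summed length of each gene's exons. In KO, Ptges2 was highest at 30.2 ± 3.86 TPM, followed by Ptges (18.3 ± 8.99), Ptger3 (17.7 ± 6.65), Ptgs1 (12.1 ± 4.31), Ptgds (10.2 ± 1.27) and Ptgdr (3.08 ± 4.19), with Hpgd at 1.13 ± 0.527, Ptger1 at 0.660 ± 0.315, Ptgs2 at 0.378 ± 0.458 and Ptger4 at 0.170 ± 0.0696 TPM (SD, n = 4). In Control, Ptges came first at 36.01 ± 5.06 TPM, then Ptgds (24.3 ± 4.76), Ptges2 (24.2 ± 1.09), Ptgs1 (21.8 ± 4.49) and Ptger3 (19.9 ± 6.66), with Hpgd at 1.48 ± 0.282, Ptger1 at 0.891 ± 0.527, Ptgs2 at 0.545 ± 0.414, Ptger4 at 0.430 ± 0.1801 and Ptgdr at 0.00884 ± 0.0177 TPM (SD, n = 4). Neighbours within the first 5 places overlapped between libraries in both groups. In Control, the lowest value among the first 5 genes, 11.9 TPM for Ptger3, was above the highest of the other 5, 1.81 TPM for Hpgd. In KO, the first 5 genes reached down to 6.83 TPM (Ptgs1), and Hpgd reached up to 1.76 TPM. Ptgdr, at 1.07, 1.59, 0.345 and 9.32 TPM in KO replicates 1 to 4, had no value between these levels. Among the lower genes, neighbours overlapped too, except that Ptger4 lay above Ptgdr in Control. TPM orders genes within a group and is not used for differences between groups: the mean of Ptges2 differed more between the groups in TPM than in CPM.

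Among the other genes of the pathway, 0 of the 47 tested passed the threshold in either direction (edgeR quasi-likelihood test, adjusted over all genes), while at an unadjusted p below 0.05 there were 5 higher and 5 lower, where 1989 of all 14268 genes tested lay below that p. DESeq2 called 1 higher (Ptgfrn) and 1 lower (Ephx1), and limma-voom called 0. These genes came from a list of 68 measured genes that are not among the 10, of which 21 had too few counts to be tested and 6 of those had none. Their median log2 fold change was -0.10, against -0.02 over all genes tested.

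Of the receptors, Ptgfr, the prostaglandin F receptor, was far above all others, and it is known as a receptor of this segment. It stood at 479, 581, 545 and 667 CPM in KO and at 407, 467, 471 and 329 CPM in Control. The KO libraries all lay above the Control libraries, and the log2 fold change was 0.44 ± 0.16 (SE), at 0.236 for the edgeR adjusted p. Per length, Ptgfr was at 213 ± 40.1 TPM in KO and 133 ± 27.3 TPM in Control (SD, n = 4 each). These TPM values place it among the receptors within a group and do not measure the group difference. Ptgfr took 90.6% ± 2.62 of the summed level of 9 prostanoid receptor genes in KO and 86.1% ± 3.95 in Control (SD, n = 4 each). Ptger3 came second, at 7.76% ± 3.45 in KO and 12.8% ± 3.44 in Control. Ptgdr took 0.525%, 0.708%, 0.160% and 3.15% in KO replicates 1 to 4, against 0.0185% at most in Control. Ptgfrn, a membrane protein that inhibits the prostaglandin F receptor, was at 11.5 to 24.5 CPM in KO and at 5.85 to 10.4 CPM in Control, also without overlap (log2 0.87 ± 0.26, SE, edgeR adjusted p = 0.160). A gene on the opposite strand shares 4.85% of the Ptgfr exon bases and held 2.99% as many reads. The receptors Ptger2, Ptgdr2, Ptgir and Tbxa2r had too few reads to be tested.

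**Figure D3:**
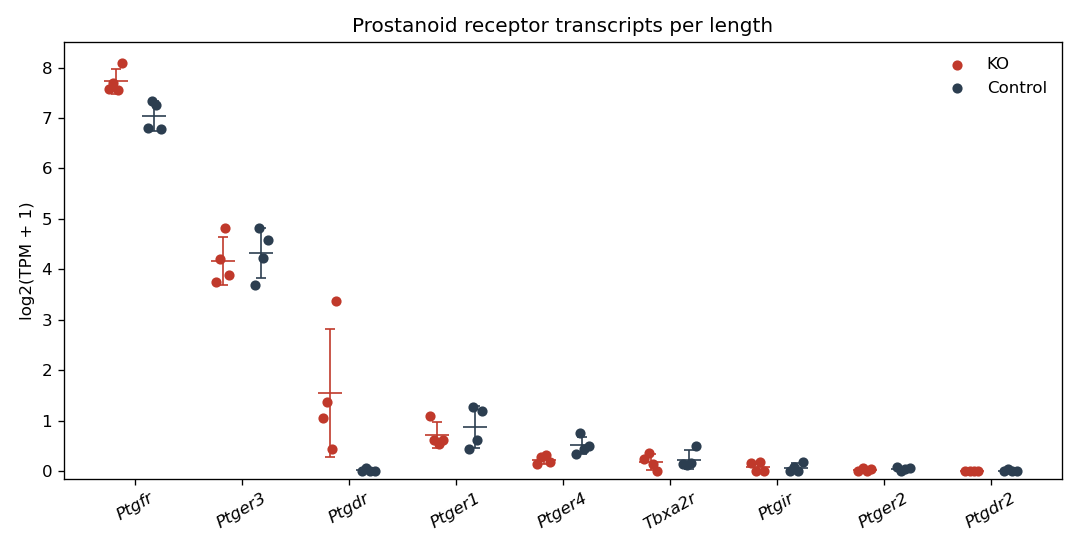
Level of 9 prostanoid receptor genes as log2(TPM + 1), with 1 point per library, KO left of Control, the horizontal bar at the mean and the error bar the SD of 4 libraries. Ptgfr stands above all others in both groups and Ptger3 is second. Ptgdr comes after them by the KO mean, though Ptger1 was above it in KO replicates 1 and 3, and it is at or near 0 in Control.

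Of the 17 genes of arachidonic acid release, 9 were tested, with 2 positive and 7 negative fold changes. The secreted phospholipase Pla2g12a was at 24.2 to 27.1 CPM in KO and at 30.5 to 61.0 CPM in Control (log2 -0.64 ± 0.21, SE, edgeR adjusted p = 0.187), and the monoacylglycerol lipase Mgll was at 153 to 173 CPM in KO and 174 to 235 CPM in Control (log2 -0.35 ± 0.12, adjusted p = 0.218). For the cytosolic phospholipase Pla2g4a, the classical source of arachidonic acid, the log2 value was 0.29 ± 0.13 (adjusted p = 0.354). Of the other prostanoid synthases, all 7 tested had negative fold changes, with the thromboxane synthase Tbxas1 at -0.57 ± 0.20 (adjusted p = 0.238) and the steroid and prostaglandin F reductase Akr1c18 at -2.63 ± 1.09 (adjusted p = 0.319) from under 4 CPM in every library. Without KO replicate 1, the Akr1c18 value was -3.87. That of Pla2g12a was -0.37 without Control replicate 1. Hpgds, the blood-cell form of the prostaglandin D synthase, had 0 to 3 reads per library and was not tested.

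Of the 7 transport and breakdown genes tested, 4 had positive and 3 negative fold changes. The organic anion transporter Slco3a1, which carries prostaglandins, was at 146 to 193 CPM in KO and at 116 to 151 CPM in Control (log2 0.35 ± 0.13, edgeR adjusted p = 0.276), and the reductase Ptgr2 had -0.19 ± 0.10 (adjusted p = 0.412). In the lipoxygenase and epoxygenase branches, the leukotriene C synthase Ltc4s stood at 56.6, 76.6, 39.5 and 186 CPM in KO and at 62.4, 23.1, 21.8 and 40.1 CPM in Control (log2 1.28 ± 0.49, adjusted p = 0.279), and its log2 value was 0.65 without KO replicate 4. An antisense gene shares 26.4% of the Ltc4s exon bases and held 13.2% as many reads. The epoxide hydrolase Ephx1 was at -0.40 ± 0.12 on the same scale (adjusted p = 0.152). Of the 12 tested genes of receptor coupling, the G protein subunits Gna11 (0.26 ± 0.13, adjusted p = 0.401) and Gnai1 (0.28 ± 0.15, adjusted p = 0.417) had the smallest p.

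**Figure D4:**
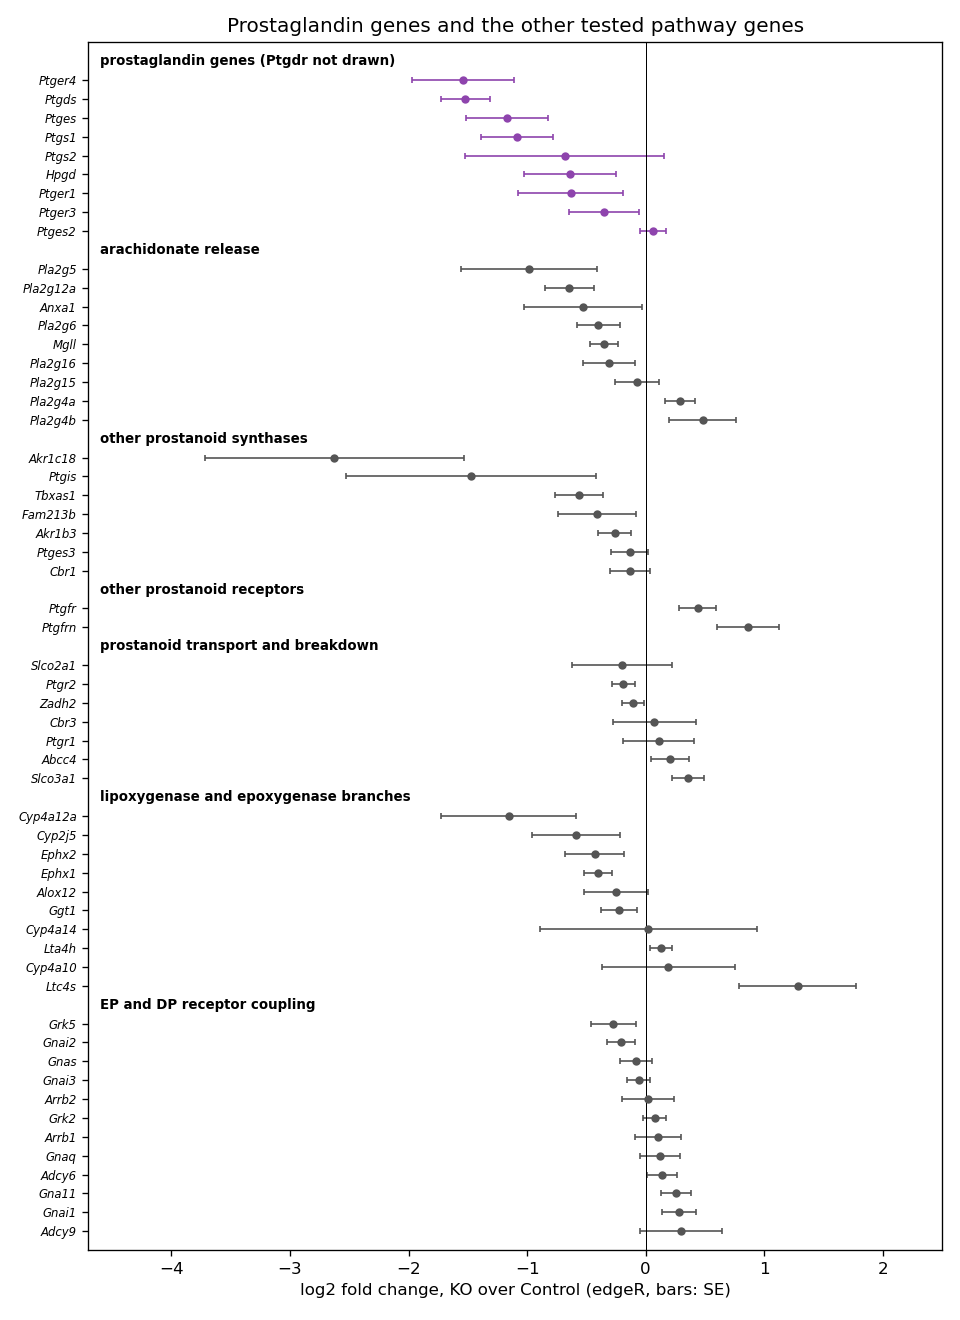
Log2 fold change, KO over Control, with its standard error (edgeR), for 9 of the prostaglandin genes and the 47 other pathway genes tested, grouped by role. Ptgdr is not drawn since its Control counts are near 0. Ptger4 and Ptgds have the lowest values among the prostaglandin genes drawn, at -1.54 and -1.52, and Ptges2 lies at 0.06.

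The 5 genes whose levels most resembled those of Ptgds over the 8 libraries were Mir670hg, Becn1, Fam131a, Socs5 and Larp1b (Pearson r of log2(CPM + 1) from 0.976 to 0.997, among 13250 genes at 1 CPM or more in a group). All 5 were lower in every KO library than in any Control library and, like Ptgds, highest in Control replicate 1. For Ptgdr they were Shcbp1, Gm42674, Gpnmb, Slc25a24 and S100a4 (r from 0.986 to 0.990). These were highest in KO replicate 4, with Gpnmb, a membrane glycoprotein, at 22.3 CPM there and at 0.433 to 5.55 CPM in the other KO libraries. The 8 libraries share 1 group difference and 1 high library, so these likenesses are a description.

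Beside the genotype, the libraries can be divided in 2 ways from their labels and names, by the first 3 digits of the animal number and by whether the deposited name carries an index sequence. Within the number series that holds 3 KO and 2 Control animals, the difference in mean log2(CPM + 1), KO minus Control, was -1.24 for Ptgds, 1.88 for Ptgdr, -0.82 for Ptgs1 and -1.01 for Ptges. Over all 8 libraries it was -1.36, 1.72, -1.11 and -1.31 for the same genes. The series with 1 KO and 1 Control library gave -1.77 for Ptgds, 1.19 for Ptgdr, -1.40 for Ptgs1 and -1.98 for Ptges. A last series holds 1 Control library alone. Among the 3 KO and 3 Control libraries without an index in the name the differences were -1.43 for Ptgds, 1.92 for Ptgdr, -1.27 for Ptgs1 and -1.15 for Ptges, and in the pair with an index they were -1.15, 1.118, -0.60 and -1.80. Each of these 4 genes, and likewise Ptgs2, Ptger3, Ptger4 and Hpgd, kept its sign in every such subset that held both groups. Ptger1 was at 0.67 in the series with 1 library of each group, and at -0.36 over all 8 libraries. Ptges2 was at -0.19 in that series and at 0.07 over all 8.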

How the data were processed

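The deposited files hold read counts per Ensembl gene, as the authors made them not normalized. STAR 2.7.4a, bcl2fastq 2.20, fastp 0.20.0 and the build GRCm38.p6 are named in the submitters' processing notes. The sources used here do not give the counting program, annotation release or strand setting, so reads of overlapping genes cannot be told apart. Names, positions and exon lengths came from GENCODE vM21 on GRCm38, which named 42347 of 42416 identifiers.

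Groups follow the genotype label, and replicate numbers only name libraries. Genes kept by edgeR's filterByExpr were compared with edgeR 4.0.16 (R 4.3.3), TMM scaling and the two-sided quasi-likelihood F test, with genotype as the single factor and Benjamini-Hochberg adjustment over all genes at 0.05. Each SE is the log2 value over the root of its F. Depth sets the precision: at 1 CPM a gene has under 50 reads in every library. Intervals cover counting error only. Alternatives were DESeq2 1.42.0, limma-voom 3.58.1, other scalings, filters and covariates, and leaving out each library. Named genes are the 10 genes, the pathway genes past the threshold or the 2 with the smallest p per list, the 5 most like Ptgds and Ptgdr, Ppp3r1, Slc12a3 and Pvalb; Pla2g4a, the receptors, single cell type markers and Hpgds were added after their values were seen. The genes and lists were chosen with earlier results of these data known. Other marker lists, summed in CPM, are given in the closing section.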

Additional observations from a re-analysis of the deposited data

Results flagged for a closer look

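In 5 of 62 groups of 4 libraries checked, 1 library stood apart from the other 3 by Dixon's test of its gap to the nearest library over the group's range, at the 95% level. Chance flags about 1 in 20 groups. Ptgdr was at 10.7 CPM in KO replicate 4, while the other 3 KO libraries had 0.472 to 2.12 CPM. Ptger1 was at 2.30 CPM in KO replicate 1, while the other 3 had 1.05 to 1.20 CPM. Pla2g12a was at 61.0 CPM in Control replicate 1, while the other 3 Control libraries had 30.5 to 33.7 CPM. Ptgr2 was at 199 CPM in Control replicate 3, and at 184 CPM in each of the other 3. The summed endothelial markers were at 24.4 CPM in Control replicate 1 and at 40.3 to 42.8 CPM in the other 3.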

How the results depend on the processing

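Genes past the threshold numbered 316 in all, 36 to 388 with 1 library left out, 749 by DESeq2, 519 by limma-voom, 140 with at least 5 CPM in 4 libraries, 199 with name form (index sequence or none) as a batch term and 29 with the animal number series as a block. Of the 10 prostaglandin genes, 1 was called higher (Ptgdr), 0 to 1 with 1 library left out, 0 with the 5 CPM filter, which does not test it, and 0 with the block. The call of Ptgdr was lost without KO replicate 2 or any 1 Control library. In the other direction, 1 was called lower (Ptgds), 0 to 3 with 1 library left out, 4 by DESeq2 and 2 by limma-voom. Ptgds was past the threshold in 15 of the 16 other settings and not without KO replicate 2, where its log2 fold change was -1.53. Ptgs1 and Ptges were also called by DESeq2 and without KO replicate 3, Ptges by limma-voom, and Ptger4 by DESeq2. Of the other pathway genes, DESeq2 called 1 higher and 1 lower, and the rest of the settings called 0. Of 346 recomputed fold changes of 22 genes, 0 changed sign. The fitted log2 fold change of Ptgdr lay between 5.80 and 9.53 and depends on the prior count. Library totals as the scaling moved the median of all genes to 0.13. By the longest transcript as the length, 4 of the 10 genes kept their rank by mean TPM, and 2 to 10 did with 1 library left out, with 2 without KO replicate 4. The intercalated cell marker sum had a log2 difference of 0.02 between group means, and -0.0704 by mean log2(CPM + 1). By the same measure, the thick ascending limb list had an exact permutation p of 0.0857 in place of 0.0286 (adjusted 0.193 in place of 0.0857), and the connecting tubule and principal cell list 0.0286 in place of 0.0571 (adjusted 0.0857 in place of 0.103). Genes under about 1 CPM (Ptgs2, Ptger4, Hpgd) rest on few reads, and a difference missed there is not shown to be absent. The cause of these changes was not tested.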

Other observations

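Other marker lists, given as summed CPM, did not pass the adjusted threshold. Fibroblast and mural markers, of which 1 of 8 had no reads, summed to 1.25 to 5.57 CPM in KO and 5.22 to 10.5 CPM in Control (exact permutation p = 0.0571, adjusted p = 0.103). Intercalated cell markers summed to 365 to 725 CPM in KO and 450 to 640 CPM in Control. Proximal tubule markers reached 3781 to 9988 CPM in KO and 6416 to 14957 CPM in Control. Endothelial markers summed to 8.32 to 53.6 CPM in KO and 24.4 to 42.8 CPM in Control, and podocyte markers to 14.8 to 101 CPM in KO and 17.7 to 139 CPM in Control. The last 4 of these lists had exact permutation p-values from 0.229 to 0.971. The part of these cell types in the prostaglandin gene values was not tested.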
